A study of Homo sapiens with 12 samples.

Results

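The transcripts of 8 enzymes that make or interconvert asparagine, proline, glutamate, aspartate, alanine and cysteine were followed in K562 leukemia cells treated with lycorine. They were ASNS, ALDH18A1, PYCR1, GPT2, GOT1, GOT2, CBS and CTH, chosen by gene symbol, and they make up 8 of the 19447 symbols in the deposited count table. All 8 passed the filter on low counts in every comparison.

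RNA with poly(A) tails was sequenced in 12 libraries, 3 for each of 4 groups. The K562 line was established from human chronic myeloid leukemia and carries BCR-ABL. K562/IM was derived from it by raising imatinib (IM), an inhibitor of the ABL kinase, step by step, and was then kept in 5 µM imatinib. K562+L and K562/IM+L are the same lines given lycorine, a plant alkaloid, at 6 µM. The untreated K562 and K562/IM libraries received no lycorine, and how long the cells were exposed before sequencing is not stated. Nothing states that the 3 libraries of a group came from separate cultures, so that p-values measure only the spread between these libraries, which may be technical.

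The total count per library ran from 75093844 to 107344598. Levels are given as CPM (counts scaled to a common library size) after scaling by edgeR's TMM method, as mean ± SD over the 3 libraries of a group. The sample labels and the published figures name the K562/IM+L group differently, and ABCB1, the drug efflux pump P-gp, stood at 0.705, 0.488 and 1.06 CPM in those libraries against 23.6 ± 2.07 (SD, n = 3) in K562/IM and 1.76 ± 0.093 (SD, n = 3) in K562. In K562+L it was 4.28 ± 0.759 (SD, n = 3), above K562. The cause of the low ABCB1 in the K562/IM+L libraries was not tested, and the grouping follows the label. Because the names differ, they are written as the libraries labelled K562/IM+L, or in short as the labelled libraries, and any direction taken from them depends on that label. All 18 markers of an erythroleukemia line (globins, glycophorins, GATA1, TAL1 and others) were over 1 CPM in each group. Their summed level was 8007 to 10930 CPM in K562, 5345 to 6214 in K562+L, 3720 to 3931 in K562/IM and 42326 to 59935 in the last group. The 22 markers of other cell types summed to 243 to 248, 218 to 249, 256 to 270 and 163 to 188 CPM in the same order, most of it from LYZ and EPCAM. Of these 22 markers, 4, 3, 9 and 3 were over 1 CPM and 6, 7, 6 and 3 were at 0 in all libraries of the group, among them MS4A1 of B cells in every group and ALB of hepatocytes and ELANE of granulocytes in all but the labelled one. In K562/IM COL1A2 reached 17.2 CPM and CD3D 22.0 CPM, against at most 0.0294 and 2.15 in the other group means. The part of these markers in the results below was not tested. In bulk RNA, fewer cells of a type and less RNA per cell cannot be told apart.

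ASNS moves an amide group from glutamine onto aspartate and so makes asparagine. ALDH18A1 and PYCR1 carry glutamate to proline in the mitochondria, GPT2 makes alanine from pyruvate with glutamate as the amino donor, and GOT1 and GOT2 exchange amino groups between glutamate and aspartate in the cytosol and the mitochondria. CBS and CTH pass the sulfur of homocysteine through cystathionine to cysteine. When amino acids run short or the endoplasmic reticulum is stressed, phosphorylation of eIF2α favors translation of ATF4, a transcription factor that binds C/EBP-ATF elements, and ASNS is a textbook target of it.

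Promoter windows, from 250 bases before the start to 50 bases after it, were read from RefSeq on GRCh38.p14 for 6 of the 8 genes. PYCR1 and GPT2 had no entry. On both strands they were searched for the core TGATGNAA of the C/EBP-ATF element and for the E-box CACGTG, which MYC and its relatives bind. The 6 genes had 9 windows in all, since ASNS and CBS have several. The letters TGATGNAA were found in 2 of the 6 genes and in 3.62% of all 35116 windows. The E-box was found in 1 of the 6 genes and in 7.26% of all windows. Counts by gene and shares by window are unlike measures. The 3 stretches are shown because they hold these letters, which are in capitals. The ASNS stretch at chr7:97872443-97872502 and the GOT1 stretch at chr10:99430789-99430848 hold the TGATGNAA core, and the ALDH18A1 stretch at chr10:95656816-95656873 holds the E-box. All lie on the minus strand and are written 5′ to 3′.
ASNS: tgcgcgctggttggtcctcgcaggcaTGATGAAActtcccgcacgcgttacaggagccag
GOT1: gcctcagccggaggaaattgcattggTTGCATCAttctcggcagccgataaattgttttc
ALDH18A1: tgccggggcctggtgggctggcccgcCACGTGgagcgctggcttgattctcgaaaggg
Counted from the RefSeq start of its window, the core begins at position -68 in ASNS, in the same orientation as the gene. In GOT1 it begins at -198 from such a start and runs in the opposite orientation. The GENCODE gene spans given below reach farther upstream, to 97872542 for ASNS and 99431569 for GOT1. Both stretches lie inside those spans. The E-box of ALDH18A1 begins at -136. These are matches of letters, and binding was not measured.

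Lycorine in K562 was accompanied by lower ASNS, GPT2, CTH and PYCR1 transcripts and by no higher member. With edgeR's quasi-likelihood test, adjusted over all genes tested and read at an adjusted p under 0.05, 0 of the 8 genes passed as higher in K562+L than in K562 and 4 as lower. Of the 12927 genes tested, 18.2% passed as higher and 19.0% as lower. The median log2 fold change of the 8 genes was -0.69, and that of all genes tested was -0.00012.

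K562/IM differed from K562 in 6 of the 8 genes. CTH was higher, and ASNS, PYCR1, GPT2, GOT1 and GOT2 were lower. Among the 13406 genes tested 30.1% passed as higher and 27.1% as lower. The 8 genes had a median log2 fold change of -0.55 against 0.042 for all genes.

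The libraries labelled K562/IM+L held more ASNS and ALDH18A1 than K562/IM, and less GPT2, GOT2 and CTH, so that 2 genes passed as higher and 3 as lower. A large share of the transcriptome passed in this comparison, 33.2% of 13727 genes as higher and 33.6% as lower, and the count of 5 of 8 members was near this background. The median over the members was -0.067 and over all genes -0.0069.

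Against K562 itself, the libraries labelled K562/IM+L had 0 higher and 6 lower members (ASNS, PYCR1, GPT2, GOT1, GOT2 and CTH), with 28.2% of 13307 genes higher and 27.8% lower. The median log2 fold change was -0.59 for the members and 0.020 for all genes. K562 entered 3 of these comparisons and K562/IM 2, so that the comparisons are not independent of each other.

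The lycorine effects of the lines, the labelled K562/IM+L against K562/IM change and the K562+L against K562 change, were compared by an interaction over all 12 libraries. For ASNS, PYCR1, GPT2, GOT1 and CTH the first effect was more positive than the second, and 0 members went the other way. These were 5 of 8 members against 29.9% of 13995 genes with a more positive and 31.7% with a more negative difference. The median difference was 0.34 for the members and -0.020 for all genes on the log2 scale.

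**Figure D1:**
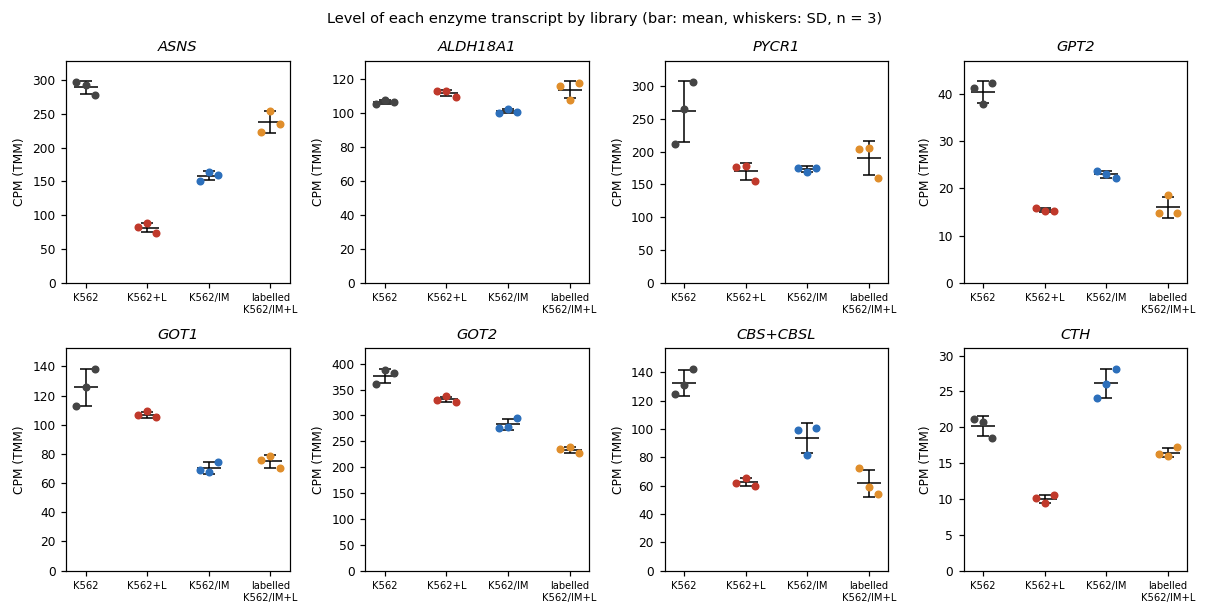
Level of each enzyme transcript (CPM, linear axis from 0) in the 12 libraries, with each point a library, the bar the mean and the whiskers the SD of 3 libraries, and CBS drawn as the sum with its near-identical copy CBSL. ASNS separates all 4 groups, from 289 CPM in K562 to 81.7 in K562+L, whereas ALDH18A1 stays between 99.8 and 118 CPM throughout.

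**Figure D2:**
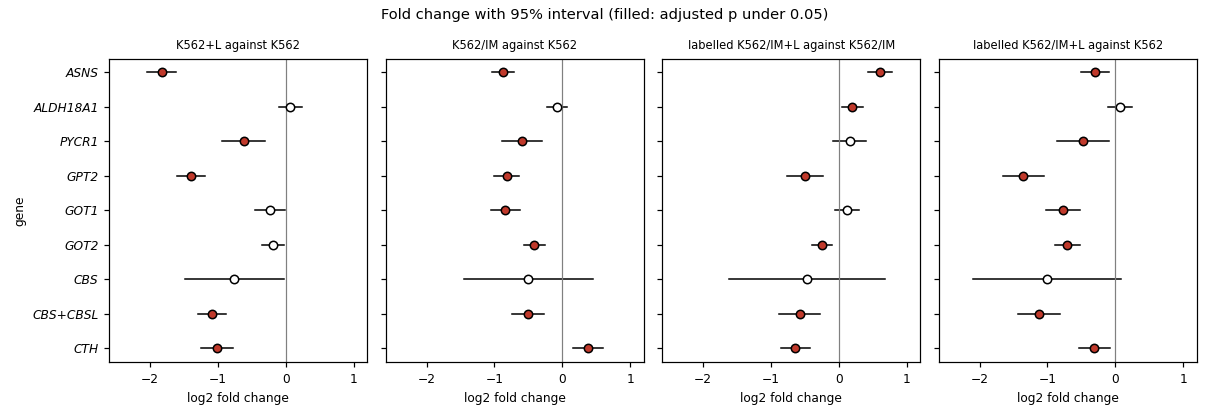
The log2 fold change of each gene in 4 comparisons, with the 95% interval as a line and a filled point where the adjusted p was under 0.05. ASNS lies at -1.83 in K562+L against K562 and at 0.61 where the labelled libraries are set against K562/IM, and the row of CBS alone has far wider intervals than that of CBS and CBSL together.

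ASNS spans chromosome 7 from 97852118 to 97872542 (GRCh38, minus strand, 14 exons). The K562 libraries held 297, 293 and 278 CPM (289 ± 9.59, SD, n = 3) and the K562+L libraries 82.8, 88.1 and 74.0 (81.7 ± 7.12, SD, n = 3). Libraries of K562/IM held 151, 164 and 160 CPM (158 ± 6.58, SD, n = 3), and those labelled K562/IM+L held 223, 255 and 235 (237 ± 16.1, SD, n = 3). No group overlapped another, and the order ran from K562 through the labelled K562/IM+L and K562/IM libraries down to K562+L. ASNS fell in K562+L (log2 fold change -1.83, SE 0.093, adjusted p = 4.81e-05), and it was lower in K562/IM than in K562 by -0.87 (SE 0.069, adjusted p = 3.74e-05). It rose in the labelled libraries against K562/IM by 0.61 (SE 0.075, adjusted p = 2.72e-04). Taken by the labels, the lycorine effects thus had opposite signs in the lines, and their difference was 2.41 (95% interval 2.17 to 2.66, adjusted p = 1.29e-08). Against K562 the labelled libraries were lower by -0.30 (SE 0.087, adjusted p = 0.0205). That call did not hold under upper-quartile normalization (-0.15, adjusted p = 0.162) or without K562 replicate 1, K562 replicate 2 or labelled replicate 1 (adjusted p = 0.0513, 0.0773 and 0.0768).

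Other genes of asparagine and aspartate use moved in both directions. ASNSD1, a gene named for a domain like that of asparagine synthetase, stood at 46.3 ± 2.58 (SD, n = 3) CPM in K562 against 52.5 ± 3.06 (SD, n = 3) in K562+L and did not pass there (adjusted p = 0.145). It was lower in K562/IM than in K562 (log2 fold change -0.51, adjusted p = 0.00119) and higher in the labelled libraries than in the K562/IM ones (0.73, adjusted p = 1.12e-04), so that its signs matched those of ASNS in these comparisons. Of the 12 listed genes of the pathway besides ASNS and the aspartate aminotransferases, 9 were tested in K562+L, with 1 higher and 4 lower. In K562/IM against K562 10 were tested, with 2 higher and 6 lower. The labelled libraries against K562/IM gave 6 higher and 3 lower of 10, and against K562 2 higher and 3 lower of 9.

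ASS1, which joins aspartate to citrulline, had 4.18 CPM in K562, 0.738 in K562+L, 0.641 in K562/IM and 2.46 in the labelled libraries. It fell in K562+L (log2 fold change -2.51, SE 0.22), was lower in K562/IM than in K562 (-2.71, SE 0.25) and rose in the labelled libraries against K562/IM (1.97, SE 0.33), as ASNS did. ASRGL1, an asparaginase that breaks asparagine down, was lower in K562/IM than in K562 (-1.16, SE 0.11) and higher in the labelled libraries than in the K562/IM ones (1.93, SE 0.10). CAD, which uses aspartate for pyrimidine synthesis, was higher in K562+L than in K562 (0.53, SE 0.086) and lower in the labelled libraries than in the K562/IM ones (-1.36, SE 0.10). ADSS1, which joins aspartate to IMP in purine synthesis, was higher in K562/IM than in K562 (1.21, SE 0.099), and higher in the labelled libraries than in K562 (2.41, SE 0.12). Against K562 these libraries also held less ADSS2, its paralog (-1.14, SE 0.087). ASL, the next enzyme after ASS1, fell in K562+L (-0.51, SE 0.13). DDO, which oxidizes D-aspartate, had no count in K562, K562+L or the labelled libraries and 0.239 to 0.552 CPM in K562/IM, and no fold is given.

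ALDH18A1 lies on chromosome 10 from 95605929 to 95656706 (minus strand, 18 exons) and makes the semialdehyde from which proline and ornithine are formed. Its K562 libraries held 105, 107.5 and 107 CPM (106 ± 1.15, SD, n = 3), and its K562+L libraries 113, 113 and 110 (112 ± 1.88, SD, n = 3). The K562/IM libraries held 99.8, 102 and 101 CPM (101 ± 1.21, SD, n = 3), and the labelled libraries 116, 107.8 and 118 (114 ± 5.18, SD, n = 3). The labelled and the K562+L libraries overlapped, and K562 and K562/IM lay a little below them without overlap. ALDH18A1 did not pass in K562+L (log2 fold change 0.069, 95% interval -0.10 to 0.24, adjusted p = 0.493) or in K562/IM against K562 (-0.078, 95% interval -0.22 to 0.067, adjusted p = 0.315). It rose slightly in the labelled libraries against K562/IM (0.20, SE 0.066, adjusted p = 0.0293), and this call was lost without any 1 of the 3 K562/IM libraries or labelled replicate 1 (adjusted p from 0.0787 to 0.113). Against K562 the labelled libraries differed by 0.076 (95% interval -0.10 to 0.25, adjusted p = 0.420), but by 0.23 (adjusted p = 0.0370) under upper-quartile normalization. Among the 8 genes it varied least over the 12 libraries, with an SD of 0.077 on the log2 scale against 0.73 for ASNS.

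PYCR1, the mitochondrial reductase that completes proline synthesis, lies on chromosome 17 from 81932384 to 81942412 (minus strand, 8 exons). The K562 libraries held 212, 265 and 306 CPM (261 ± 46.8, SD, n = 3) and the K562+L libraries 176, 178 and 155 (170 ± 12.7, SD, n = 3). Those of K562/IM held 175, 168 and 176 CPM (173 ± 4.06, SD, n = 3), and the labelled libraries 203, 206 and 160 (190 ± 25.6, SD, n = 3). Every K562 library was above every other library, and the other 3 groups overlapped. PYCR1 fell in K562+L (log2 fold change -0.62, SE 0.14, adjusted p = 0.0101) and was lower in K562/IM than in K562 (-0.59, SE 0.13, adjusted p = 0.00481). The labelled libraries did not pass against K562/IM (0.16, 95% interval -0.080 to 0.40, adjusted p = 0.204), although without labelled replicate 3 the value was 0.27 (adjusted p = 0.00105). The lycorine effects differed by 0.76 (SE 0.18, adjusted p = 0.00361). Against K562 the labelled libraries were lower by -0.48 (SE 0.16, adjusted p = 0.0410), a call that was lost without any 1 of K562 replicates 2 and 3 or of the 3 labelled libraries (adjusted p from 0.0593 to 0.103) and under upper-quartile normalization (-0.33, adjusted p = 0.127). PYCR1 shares 408 exon bases on its strand with MYADML2, which itself had 0 to 36 counts in any library.

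PYCR3, a related reductase that works in the cytosol, fell in K562+L (log2 fold change -0.82, adjusted p = 0.00288) and was also lower in K562/IM than in K562 (-0.70, adjusted p = 0.00111) and in the labelled libraries than in the K562/IM ones (-0.42, adjusted p = 0.0356). PRODH, which starts proline breakdown, had no count in any library. ALDH4A1, which completes that breakdown, stood at 20.1 ± 2.54 (SD, n = 3) CPM in K562 against 48.4 ± 0.892 (SD, n = 3) in K562/IM (log2 fold change 1.27, adjusted p = 4.46e-05), and was lower in the labelled libraries than in the K562/IM ones (-0.59, adjusted p = 0.0314).

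OAT links ornithine to the same semialdehyde. Libraries of K562/IM held 151, 161 and 159 CPM and the labelled libraries 726, 729 and 718. OAT rose there with a log2 fold change of 2.23 (SE 0.063, adjusted p = 3.26e-07), and did not pass in K562+L (-0.37, adjusted p = 0.128). Of the 10 listed genes of proline and ornithine besides the members, 7 were tested in each comparison. In K562+L 1 was higher (ODC1 of polyamine synthesis, 0.39, SE 0.12) and 1 lower, and in K562/IM against K562 2 were higher and 2 lower. The labelled libraries had 3 higher and 3 lower in either comparison. The arginases, which release ornithine from arginine, parted there. ARG1 reached 1.23 CPM from 0.154 in K562/IM (3.05, SE 0.63), and ARG2 fell from 21.1 to 5.94 CPM (-1.80, SE 0.13).

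GPT2 lies on chromosome 16 from 46884378 to 46931297 (plus strand, 12 exons) and encodes the mitochondrial alanine aminotransferase. The K562 libraries held 41.4, 37.8 and 42.2 CPM (40.5 ± 2.34, SD, n = 3) and the K562+L libraries 15.8, 15.1 and 15.3 (15.4 ± 0.345, SD, n = 3). The K562/IM libraries held 23.6, 23.1 and 22.2 CPM (23.0 ± 0.688, SD, n = 3), and the labelled libraries 14.8, 18.6 and 14.7 (16.01 ± 2.23, SD, n = 3). K562 was highest and K562/IM next, and the groups given lycorine overlapped at the bottom. GPT2 fell in K562+L against K562 (log2 fold change -1.40, SE 0.089, adjusted p = 8.37e-05). In the labelled libraries it was lower than in the K562/IM ones (-0.49, SE 0.11, adjusted p = 0.00554). The effects differed by 0.88 (SE 0.14, adjusted p = 1.62e-04), so that the change was larger in K562+L. It was lower in K562/IM than in K562 by -0.82 (SE 0.079, adjusted p = 1.01e-04) and in the labelled libraries than in K562 by -1.36 (SE 0.13, adjusted p = 1.33e-04). GPT, the cytosolic alanine aminotransferase, stood at 0.487 to 1.64 CPM in the group means and rose in the labelled libraries against K562/IM (0.95, adjusted p = 0.0230).

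GOT1, the cytosolic aspartate aminotransferase, lies on chromosome 10 from 99396870 to 99431569 (minus strand, 9 exons). The K562 libraries held 113, 126 and 138 CPM (126 ± 12.9, SD, n = 3) and the K562+L libraries 106, 109 and 105 (107 ± 2.07, SD, n = 3). Those of K562/IM held 68.8, 67.4 and 74.7 CPM (70.3 ± 3.90, SD, n = 3), and the labelled libraries 76.1, 78.3 and 70.1 (74.8 ± 4.26, SD, n = 3). K562 was highest and K562+L next, both above every K562/IM and labelled library, and the last 2 groups overlapped. GOT1 was lower in K562/IM than in K562 (log2 fold change -0.84, SE 0.093, adjusted p = 2.09e-04), and the labelled libraries were below K562 by -0.77 (SE 0.11, adjusted p = 7.75e-04). Lycorine in K562 gave -0.23 (95% interval -0.45 to -0.014, adjusted p = 0.0882), which passed only without K562 replicate 1 (-0.32, adjusted p = 0.0208) or in a fit of all 12 libraries (adjusted p = 0.0410). The labelled libraries against K562/IM gave 0.12 (95% interval -0.059 to 0.29, adjusted p = 0.205), and 0.16 (adjusted p = 0.0399) without labelled replicate 3. The effects differed by 0.33 (SE 0.12, adjusted p = 0.0283), a call that 8 of 20 alternative settings did not keep (adjusted p from 0.0534 to 0.0992), namely without K562 replicate 2 or 3, K562+L replicate 1 or 3, K562/IM replicate 1 or 2, or labelled replicate 1 or 2.

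GOT2, the mitochondrial aspartate aminotransferase, lies on chromosome 16 from 58707131 to 58734357 (minus strand, 10 exons). The K562 libraries held 361, 387 and 382 CPM (377 ± 14.1, SD, n = 3) and the K562+L libraries 330, 337 and 327 (331 ± 5.16, SD, n = 3). Libraries of K562/IM held 276, 278 and 295 CPM (283 ± 10.5, SD, n = 3), and the labelled libraries 235, 239 and 227 (233 ± 6.26, SD, n = 3). The 4 groups did not overlap, and within each line, as labelled, the libraries with lycorine were the lower. The fall passed in the labelled libraries against K562/IM (log2 fold change -0.25, SE 0.064, adjusted p = 0.00950). In K562+L the value was -0.19 (95% interval -0.35 to -0.023, adjusted p = 0.0713), and it passed without K562 replicate 1 (-0.23, adjusted p = 0.0402), under upper-quartile normalization (adjusted p = 0.0371) and in a fit of all 12 libraries (adjusted p = 0.0225). The difference between the lycorine effects was -0.087 (95% interval -0.26 to 0.090, adjusted p = 0.374). GOT2 was lower in K562/IM than in K562 by -0.41 (SE 0.066, adjusted p = 0.00123), and in the labelled libraries than in K562 by -0.71 (SE 0.079, adjusted p = 2.82e-04).

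GOT1 and GOT2 work with malate dehydrogenases and mitochondrial carriers in the malate-aspartate shuttle, which moves reducing equivalents into mitochondria. Of its 5 other genes, all tested, 1 was higher in K562+L than in K562 (SLC25A13, an aspartate-glutamate carrier, log2 fold change 0.96, SE 0.092) and 2 were lower (MDH1 -0.43, SE 0.087, and MDH2 -0.37, SE 0.12). In K562/IM against K562 1 was higher (SLC25A11, the malate carrier, 0.62, SE 0.11) and 1 lower (MDH2, -0.52, SE 0.12). The labelled libraries had 0 higher and 2 lower in either comparison, SLC25A11 (-0.49, SE 0.14) and MDH1 (-0.26, SE 0.074) against K562/IM, and MDH2 (-0.45, SE 0.16) and MDH1 (-0.34, SE 0.095) against K562.

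GLS2, a glutaminase that frees glutamate from glutamine, was higher in K562/IM than in K562 (log2 fold change 3.87, SE 0.38), from 0.220 to 3.23 CPM, and lower in the labelled libraries than in the K562/IM ones (-1.71, SE 0.29). GLUL and GLUD1, glutamine synthetase and glutamate dehydrogenase, varied widely between libraries of some groups. GLUL held 1161 to 1177 CPM in K562, 785, 809 and 342 in K562+L and 705, 195 and 702 in the labelled libraries. It passed as lower in K562+L than in K562 (log2 fold change -0.86, SE 0.28, adjusted p = 0.0435). GLUD1 held 156, 88.95 and 93.2 CPM in K562/IM and did not pass in the labelled libraries against K562/IM (adjusted p = 0.858). Against K562 GLUD1 was lower in the labelled libraries (-0.48, SE 0.083, adjusted p = 0.00241). All 15 listed genes of glutamate, glutamine and alanine besides GPT2 were tested. In K562+L 4 were higher and 3 lower, in K562/IM against K562 4 and 2, in the labelled libraries against K562/IM 4 and 8, and against K562 4 and 6.

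The other named genes of that list moved in both directions. GFPT1, which makes glucosamine phosphate, was higher in K562+L (log2 fold change 1.17, SE 0.15) and in K562/IM (1.13, SE 0.28), each against K562. CTPS1, which makes CTP, was lower in K562/IM than in K562 (-0.73, SE 0.064) and lower still in the labelled libraries against K562 (-1.64, SE 0.076). ABAT, which breaks down GABA, had 0.350 CPM in K562/IM and 3.40 in the labelled libraries, a rise of 3.31 (SE 0.49). GMPS, which makes GMP, was lower in K562/IM than in K562 (-0.37, SE 0.062). BCAT2, the mitochondrial branched-chain aminotransferase, fell in K562+L (-0.71, SE 0.14). Its cytosolic counterpart BCAT1 fell in the labelled libraries against K562/IM (-2.59, SE 0.78), with 14.8, 25.9 and 144 CPM in the labelled libraries and 370 to 390 in K562/IM.

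CBS, cystathionine beta-synthase, lies on chromosome 21 from 43053191 to 43076943 (minus strand, 17 exons), and the annotation holds CBSL on the same chromosome from 6444869 to 6468040. Their coding sequences, 1656 bases each, were identical at 1655 positions (99.9%). Reads from these coding sequences can hardly be told apart, and CBS is given with CBSL and by their sum. The sum was formed after the values were seen.

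The row of CBS alone held 67.8, 118 and 52.4 CPM in K562, and CBSL 56.7, 13.3 and 90.3 in the same libraries. In the labelled libraries CBS held 60.5, 17.6 and 41.5 CPM and CBSL 11.7, 41.3 and 12.5. Where CBS was high CBSL was low, and the share of the pair counted as CBS ran from 29.8% to 89.9% over the 12 libraries. CBS alone passed in 0 of the 4 comparisons with edgeR's quasi-likelihood test across all genes (adjusted p from 0.0962 to 0.427). Its unadjusted p was under 0.05 in 1 of them, K562+L against K562, where the log2 fold change was -0.76 (SE 0.32, adjusted p = 0.0962), and DESeq2 gave 0 passes as well.

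**Figure D3:**
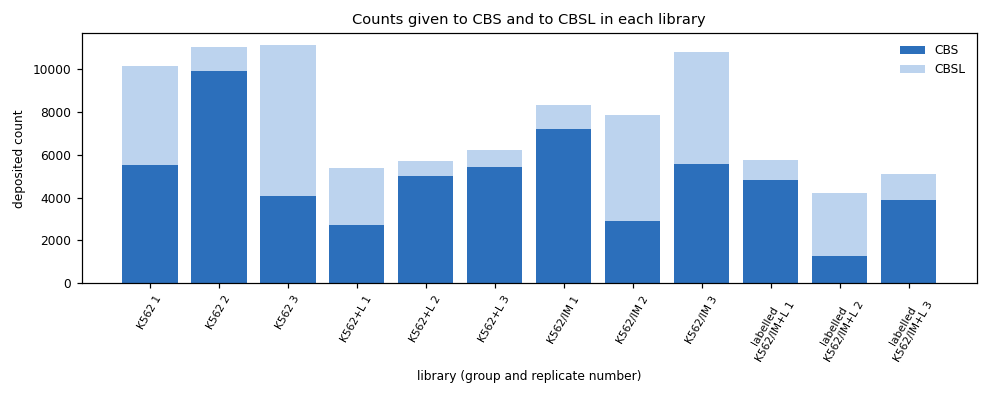
Deposited counts (linear axis from 0) given to CBS and to CBSL, stacked, in each of the 12 libraries. The split between the pair shifts from library to library of 1 group, as in K562 where CBS holds 5524, 9883 and 4073 counts, while the stacks of a group have similar heights.

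Summed, CBS and CBSL held 125, 131 and 143 CPM in K562 (133 ± 9.24, SD, n = 3) and 61.9, 65.6 and 59.7 in K562+L (62.4 ± 2.98, SD, n = 3). The K562/IM libraries held 99.4, 81.5 and 101 CPM (93.8 ± 10.7, SD, n = 3), and the labelled libraries 72.2, 58.9 and 54.0 (61.7 ± 9.44, SD, n = 3). K562 was highest and K562/IM next, and the groups given lycorine overlapped, the same order as for GPT2. The coefficient of variation in K562 was 6.96% for the sum and 43.1% for CBS alone. The sum fell in K562+L (log2 fold change -1.09, SE 0.090, adjusted p = 2.32e-04) and in the labelled libraries against K562/IM (-0.58, SE 0.13, adjusted p = 0.00549). It was lower in K562/IM than in K562 (-0.50, SE 0.10, adjusted p = 0.00387), and in the labelled libraries than in K562 (-1.12, SE 0.13, adjusted p = 3.46e-04). The lycorine effects differed by 0.49 (SE 0.16, adjusted p = 0.0200), so that the sum passed in the interaction, where CBS alone did not (adjusted p = 0.752). With the sum in place of CBS, 0 of the 8 genes were higher and 5 lower in K562+L (all genes tested 18.2% and 19.0%), and 1 higher and 6 lower in K562/IM against K562 (30.1% and 27.1%). In the labelled libraries 2 were higher and 4 lower against K562/IM (33.2% and 33.6%), and 0 higher and 7 lower against K562 (28.2% and 27.8%).

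CTH, cystathionine gamma-lyase, which releases cysteine from cystathionine, lies on chromosome 1 from 70411218 to 70439851 (plus strand, 12 exons). The K562 libraries held 21.1, 20.8 and 18.6 CPM (20.1 ± 1.38, SD, n = 3) and the K562+L libraries 10.1, 9.40 and 10.5 (10.0 ± 0.572, SD, n = 3). Those of K562/IM held 24.1, 26.1 and 28.2 CPM (26.1 ± 2.03, SD, n = 3), and the labelled libraries 16.2, 15.9 and 17.2 (16.4 ± 0.647, SD, n = 3). The 4 groups did not overlap, and CTH was the 1 member with its highest level in K562/IM. It fell in K562+L against K562 (log2 fold change -1.01, SE 0.10, adjusted p = 5.25e-04). In the labelled libraries it was lower than in the K562/IM ones (-0.64, SE 0.091, adjusted p = 5.48e-04). CTH was higher in K562/IM than in K562 by 0.37 (SE 0.095, adjusted p = 0.0108). The difference between the lycorine effects was 0.35 (SE 0.12, adjusted p = 0.0284), a call lost in 8 of 20 alternative settings (adjusted p from 0.0501 to 0.0718), namely with no filter on low counts or without K562 replicate 1 or 2, K562+L replicate 2, K562/IM replicate 1 or 2, or labelled replicate 2 or 3. Against K562 the labelled libraries were lower by -0.31 (SE 0.097, adjusted p = 0.0285), a call lost without K562 replicate 1 or 2 or labelled replicate 1 or 2 (adjusted p from 0.0743 to 0.103) and under upper-quartile normalization (-0.16, adjusted p = 0.189).

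Around these enzymes, 28 other genes of cysteine, the methionine cycle and glutathione were listed. In K562+L 3 of 22 tested were higher and 6 lower, and in K562/IM against K562 2 of 23 were higher and 9 lower. The labelled libraries had 9 higher and 9 lower of 23 against K562/IM, and 8 higher and 9 lower of 23 against K562. CHAC1, which degrades glutathione and is a known target of the ATF4 pathway, had 6.63, 6.46 and 9.37 CPM in K562 and 0.543, 0.462 and 0.845 in K562+L. It held 9.43, 9.24 and 9.43 CPM in K562/IM and 21.0, 22.3 and 19.0 in the labelled libraries. CHAC1 thus fell in K562+L (log2 fold change -3.59, SE 0.28, adjusted p = 1.85e-04) and rose in the labelled libraries against K562/IM (1.17, SE 0.093, adjusted p = 3.01e-05), with the signs of ASNS. Against K562 it went the other way from ASNS, being higher in the labelled libraries (1.45, adjusted p = 4.08e-04), and in K562/IM it gave 0.32 (adjusted p = 0.114).

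MPST, TST and SQOR handle sulfur and sulfide downstream of cysteine. MPST fell in K562+L (log2 fold change -0.65, adjusted p = 0.0270), was lower in K562/IM than in K562 (-0.68, adjusted p = 0.00467) and rose in the labelled libraries against K562/IM (1.06, adjusted p = 2.98e-04). TST rose there from 7.18 to 34.9 CPM (2.30, SE 0.14), and SQOR from 0.167 to 0.936 CPM (2.51, SE 0.55). Upstream in the methionine cycle, MAT2A, which makes S-adenosylmethionine, fell in the labelled libraries against K562/IM (-0.90, SE 0.073). AHCYL1, a relative of the enzyme that forms homocysteine, was higher in K562/IM than in K562 (1.11, SE 0.078) and lower in the labelled libraries than in the K562/IM ones (-1.32, SE 0.084). MTR, which turns homocysteine back to methionine, was slightly higher in K562/IM than in K562 (0.36, SE 0.13). Of the glutathione genes in K562+L, GCLM (0.44, SE 0.12) and CHAC2 (0.43, SE 0.095) rose, and OPLAH fell (-0.89, SE 0.15). CHAC2 was lower in K562/IM (-0.77, SE 0.097) and in the labelled libraries (-1.30, SE 0.094), each against K562.

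Over the 5 pathway lists together, 70 genes other than the 8 enzymes were listed. In K562+L 10 of 58 tested were higher and 16 lower, with a median log2 fold change of -0.11. In K562/IM against K562 11 of 60 were higher and 20 lower, with a median of -0.13. The labelled libraries had 22 higher and 25 lower of 60 against K562/IM, with a median of -0.13, and 17 higher and 23 lower of 59 against K562, with a median of -0.20. Over all genes tested, the shares higher and lower were 18.2% and 19.0% in K562+L, and 30.1% and 27.1% in K562/IM against K562. In the labelled libraries they were 33.2% and 33.6% against K562/IM, and 28.2% and 27.8% against K562. The same shares apply to the counts of each single list. The medians of the 8 enzymes were farther below 0 in 3 of the 4 comparisons, and nearer to 0 in the labelled libraries against K562/IM. In the interaction 20 of 60 of the other pathway genes had a more positive and 20 a more negative difference (all genes tested 29.9% and 31.7%), with a median of 0.15.

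ATF4 itself and its partners were read beside the enzymes. The ATF4 transcript was 486 ± 37.2 (SD, n = 3) CPM in K562, 305 ± 17.6 (SD, n = 3) in K562+L, 405 ± 5.41 (SD, n = 3) in K562/IM and 569 ± 59.9 (SD, n = 3) in the labelled libraries. It fell in K562+L (log2 fold change -0.67, adjusted p = 0.00138), was lower in K562/IM than in K562 (-0.26, adjusted p = 0.0161) and rose in the labelled libraries against K562/IM (0.52, adjusted p = 0.00120). These were the signs of ASNS in the same comparisons, while in the labelled libraries against K562 ATF4 gave 0.21 (adjusted p = 0.154) and ASNS was lower. ATF4 is controlled largely at translation and its protein was not analysed here. PSAT1 of serine synthesis, another known ATF4 target, fell in K562+L (-1.83, SE 0.085), as ASNS did. It was also lower in the labelled libraries than in the K562/IM ones (-1.03, SE 0.074), where ASNS was higher. DDIT3, the stress factor CHOP, rose in K562+L (0.92, SE 0.12), where ASNS fell, and did not pass in the labelled libraries against K562/IM (0.14, adjusted p = 0.389).

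Of the 18 listed regulators around ATF4, 16 were tested in K562+L, with 5 higher and 5 lower. In K562/IM against K562 7 of 15 were higher and 3 lower, in the labelled libraries against K562/IM 6 and 3, and against K562 5 and 1. Over all genes tested, 18.2% were higher and 19.0% lower in K562+L, and 30.1% and 27.1% in K562/IM against K562. For the labelled libraries the shares were 33.2% and 33.6% against K562/IM, and 28.2% and 27.8% against K562. PPP1R15A, which brings the phosphatase to eIF2α, rose in K562+L (log2 fold change 1.49, SE 0.091) together with ATF3 (1.29, SE 0.097). PPP1R15A was also higher than in K562 in K562/IM (1.27, SE 0.082) and in the labelled libraries (2.08, SE 0.14). DDIT4, an inhibitor of mTORC1, fell in K562+L (-1.59, SE 0.11) and rose in the labelled libraries against K562/IM (1.21, SE 0.062), as ASNS did. Unlike ASNS, it was higher than in K562 both in K562/IM (0.47, adjusted p = 0.00200) and in the labelled libraries (1.63, SE 0.092). ATF5 was lower in K562/IM than in K562 (-1.19, SE 0.074) and higher in the labelled libraries than in the K562/IM ones (1.00, SE 0.081). TRIB3, which binds ATF4 and restrains it, fell in K562+L (-1.06, SE 0.13) and was lower in K562/IM than in K562 (-0.85, SE 0.11). The labelled libraries held less EIF2AK4, the kinase that senses uncharged tRNA, than K562/IM (-0.50, SE 0.10), and less EIF2AK2, the kinase activated by double-stranded RNA (-0.51, SE 0.16). EIF2AK4 was itself higher in K562/IM than in K562 (0.62, SE 0.075), with 50.7 CPM in K562 and 54.3 in the labelled libraries. EIF2AK2 was higher in K562+L than in K562 (0.61, SE 0.13).

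**Figure D4:**
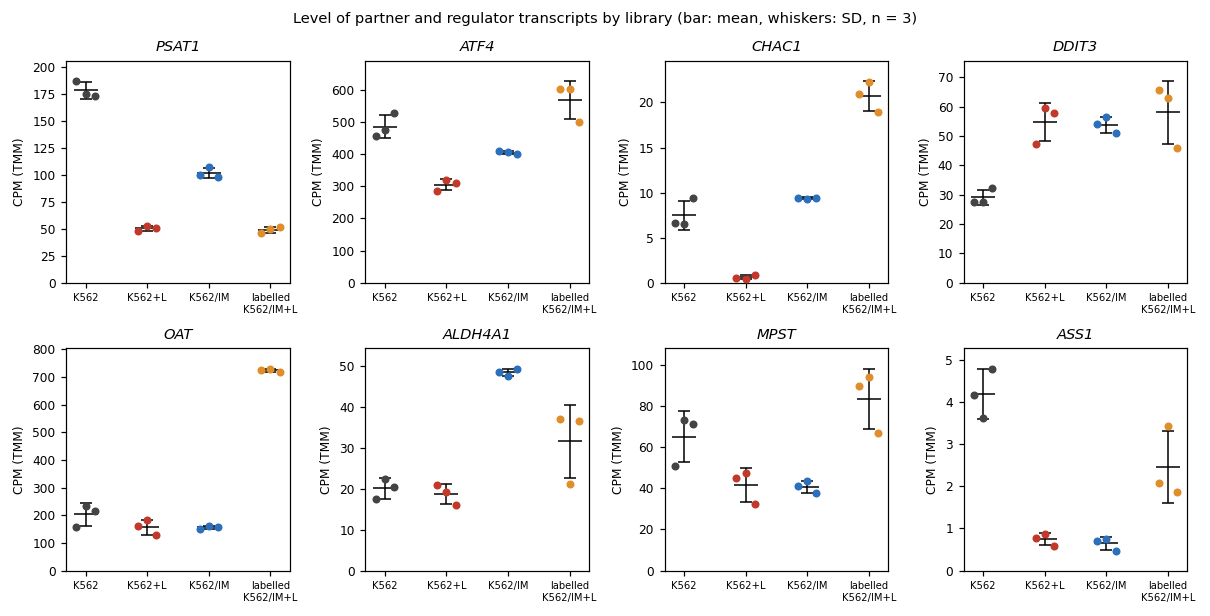
Levels (CPM, linear axes from 0) of 8 partner and regulator transcripts in the 12 libraries, with each point a library, the bar the mean and the whiskers the SD of 3 libraries. CHAC1 and ATF4 have their lowest mean in K562+L and their highest in the labelled libraries, whereas PSAT1 is near 50 CPM (50.4 and 49.0) in both groups given lycorine.

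Per kilobase of transcript, so that genes can be set against each other, the levels in K562 ran from 153 CPM per kb for GOT2, 137 for PYCR1 and 123 for ASNS to 11.2 for CTH and 10.2 for GPT2. CBS and CBSL together (51.0), GOT1 (43.0) and ALDH18A1 (31.7) lay between. In K562+L the order of the upper genes changed, with GOT2 at 134 CPM per kb, PYCR1 at 89.2 and ASNS at 34.7, a little below GOT1 at 36.6. In the labelled libraries ASNS (101) and PYCR1 (99.7) had about the level of GOT2 (94.8).

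Likeness of pattern was measured as the root mean square distance between log2 CPM profiles over the 12 libraries, each centred on its own mean, among 11667 genes with a mean of at least 1 CPM. Since the 12 libraries fall into 4 groups, these distances are descriptions with no test. Among the members the closest pair was GOT1 and GOT2 (0.18), followed by GPT2 and the CBS and CBSL sum (0.20), and the farthest was ASNS and GOT1 (0.79). The genes nearest to ASNS were INSIG1 of sterol control (0.14), ALDOC of glycolysis (0.19) and RCN3 (0.20). DNAJC12 was the nearest gene both to GPT2 (0.17) and to the CBS and CBSL sum (0.12), and RELL2 was next for both (0.20 and 0.16). The third for GPT2 was PTGES3L (0.20). CTH lay nearest to SMARCA1 (0.13), LITAF (0.14) and RASA3 (0.15).

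The flatter members had closer neighbours, as a small spread allows. PYCR1 was nearest to SLC39A3 (0.054), ECHS1 (0.068) and APEH (0.081). GOT1 was nearest to EIF3I (0.047), PSMB2 (0.059) and MESD (0.063), and GOT2 to DNAJA2 (0.062), PRDX3 (0.066) and ERICH1 (0.066). ALDH18A1 was nearest to RNF214 (0.039), KIF20A (0.045) and VEGFA (0.049). For CBS alone the nearest genes were far off, MTMR1 at 0.43, GBP4 at 0.47 and TRAM1 at 0.48.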

How the data were processed

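The authors deposited whole-number counts per gene symbol for 12 poly(A) libraries, without normalization. The submitters' processing notes name FastQC, STAR, StringTie and DESeq2 and the build hg38, and the annotation is not given in the sources used here. Among the 23289 deposited values between 1 and 25, 67.9% lay at a multiple of 4 or at the next whole number, where 52% of the whole numbers in that range lie, and counting noise may exceed what the totals give.

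Libraries were grouped by line and treatment as labelled. Counts were analysed in R 4.3.3 with edgeR 4.0.16, using filterByExpr (minimum count 10), TMM and the quasi-likelihood test on all genes of the 6 libraries compared, or of all 12 for the interaction, with Benjamini-Hochberg adjustment over all genes and a threshold of 0.05. CPM used TMM over the 12 libraries. DESeq2 1.42.0, RLE and upper-quartile normalization, other filters, counts divided by 4, a replicate block, 1 fit of all libraries and each library left out were alternatives, and the sum of CBS and CBSL was added after seeing the data. The steps were tested on simulated data. Positions came from GENCODE 29 (GRCh38). The named genes were the 8 enzymes, 16 partner genes, the top 2 per list, comparison and direction by fold change among passing genes whose libraries did not overlap, and the 3 nearest profiles per enzyme. The enzymes and lists were chosen with earlier results of these data known. The labels state no pairing and same-numbered libraries had correlations from -0.44 to 0.20, so that no pairing was used. With 3 libraries a group, these correlations cannot decide whether libraries were paired. Differently numbered libraries had correlations from -0.38 to 0.46, the highest between labelled library 3 and K562 library 1, and what they share was not tested. The labels give no batch or date. With 3 libraries a group, outlying libraries were not tested, and an exact test of single values cannot pass 0.05. A few genes that the naming rule selects are not reported here, although list counts include them.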

Additional observations from a re-analysis of the deposited data

Results flagged for a closer look

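The lycorine effect differed between the lines for 5 of the 8 enzymes, by the interaction of edgeR's quasi-likelihood test. CBS enters this count by its own row, which did not pass (0.26, adjusted p = 0.752). Its sum with CBSL, formed after the values were seen, passed with a more positive difference (0.49, adjusted p = 0.0200). Of all 13995 genes tested 29.9% had a more positive and 31.7% a more negative difference, so that the count of 5 is near the background when both directions are counted, and it is no result about the enzymes as a list. The difference, the labelled K562/IM+L effect less the K562+L effect, was 2.41 for ASNS (adjusted p = 1.29e-08), 0.88 for GPT2 (adjusted p = 1.62e-04), 0.76 for PYCR1 (adjusted p = 0.00361), 0.33 for GOT1 (adjusted p = 0.0283) and 0.35 for CTH (adjusted p = 0.0284) on the log2 scale. For ASNS the 3 K562+L libraries lay below all K562 libraries and the 3 labelled libraries above all K562/IM libraries. The summed level of the 18 erythroleukemia markers also moved in opposite directions, from 8007 to 10930 CPM in K562 to 5345 to 6214 in K562+L, and from 3720 to 3931 in K562/IM to 42326 to 59935 in the labelled libraries, and its part in these differences was not tested. All 5 differences, and that of the CBS and CBSL sum, rest on the label of the K562/IM+L libraries.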

How the results depend on the processing

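Of the values of single enzymes recomputed under the alternatives, 580 kept their direction and side of the threshold, 39 lost significance, 17 gained it and 4 changed sign, and of the counts 151 stayed within 1.5 times and 9 did not. The 39 were ASNS, PYCR1 and CTH in the labelled libraries against K562, ALDH18A1 in them against K562/IM, and GOT1 and CTH in the interaction. The enzymes passed in the labelled libraries against K562 fell from 6 to 3 with a replicate block and ranged from 3 to 5 with 1 library left out (3 without K562 replicate 2). In the interaction they ranged from 3 to 5 (main 5), with 3 without K562 replicate 2, K562/IM replicate 1 or 2, or labelled replicate 2, which also meant fewer libraries in the fit. The other pathway genes passed in K562+L were 17 with the replicate block against 26, and 17 to 33 with 1 library left out (17 without K562 replicate 2 or K562+L replicate 3). The labels do not say whether the replicate numbers pair the libraries. The block moved these calls of single enzymes: in the labelled libraries ASNS, PYCR1 and CTH against K562 (adjusted p = 0.0985, 0.115 and 0.114) and ALDH18A1 against K562/IM (0.0651) no longer passed, and CBS alone passed against K562/IM (-0.51, adjusted p = 0.00646). Over all genes it gave 3126 passing in K562+L against 4821. Upper-quartile normalization turned the GOT2 difference to 0.042 and shifted the median of all genes by 0.15 in the labelled libraries against K562, where 4564 genes then passed as higher and 2883 as lower, against 3753 and 3693. The difference for CBS alone ranged from -0.17 to 0.72 with 1 library left out, changing sign without K562 replicate 2, K562/IM replicate 2 or labelled replicate 1. The causes were not tested.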

Other observations

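In K562 the library numbered 1 held the lowest level of PYCR1 (212 CPM), PYCR3 (24.0), MPST (51.1) and OAT (158). The library numbered 3 was likewise the lowest of its group for each of these genes in K562+L (PYCR1 155 CPM) and among the labelled libraries (PYCR1 160 CPM). In K562/IM the lowest library differed between these genes. BCAT1, which makes glutamate from branched-chain amino acids, held 455, 376 and 52.9 CPM in the 3 K562 libraries. Neither pattern was tested.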
